A study of Mus musculus with 18 samples.

Results

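The 2 arms of the microRNA miR-126, mmu-miR-126-3p and mmu-miR-126-5p, were followed through ultraviolet-driven skin carcinogenesis in the mouse. They were taken by name from a small RNA sequencing table with 1251 entries, and both were found. The table covers 18 libraries of total skin RNA from 6 female SKH-1E Hairless littermates, numbered mouse 2, 3, 7, 8, 9 and 10. Each mouse gave 1 library of nonlesional, chronically UV-exposed skin (CHR), 1 of papilloma (PAP) and 1 of cutaneous squamous cell carcinoma (cuSCC), so that n = 6 for each sample type. All of these mice, and hence also the CHR samples that serve as the comparison, had received repeated solar-simulator irradiation, and skin that was never irradiated is not among the samples. SKH-1E mice carry a defect of the Hairless gene and are an outbred strain, and the labels give no age. The lesions were pieces of whole tissue, in which tumour cells, vessels, stroma and infiltrating cells were sequenced together.

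miR-126 lies within Egfl7, a gene for a secreted protein of the vessel wall, and is best known from endothelial cells, where host gene and microRNA are expressed together. It is also found in some blood-forming progenitors and platelets. In endothelium the 3p arm is known to repress Spred1 and Pik3r2, which restrain signalling from vascular growth factor receptors, and it is needed for intact vessels. The 5p arm has targets of its own, among them Dlk1 in endothelial cells. A microRNA hairpin is cut by Drosha and Dicer into a short duplex, and either strand can be loaded into the silencing complex, so that the arms can be present at different levels. mRNA was not analysed here, and the endothelial origin of miR-126 is background knowledge that these libraries of whole tissue cannot test.

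The hairpin, named Mir126a in RefSeq with mmu-mir-126 among its synonyms, lies on chromosome 2 of GRCm38, on the plus strand (chr2:26591357-26591429). Of the 9 Egfl7 transcripts in GENCODE M21 that run across it, 8 hold it in an intron, which in 6 of them is the 600-base intron from 26591064 to 26591663. A second annotated hairpin, Mir126b, lies on the minus strand inside the same stretch (chr2:26591363-26591420) and is its exact reverse complement there. The table has no entry for either of its arms. The sequences are shown because the seed, bases 2 to 8, sets which messages a microRNA pairs with, and because reads were assigned to names by their similarity. They are from RefSeq, GRCm38.p6, with the seed in capitals in the mature forms and the whole 3p arm in capitals in the hairpin.
mmu-miR-126a-3p: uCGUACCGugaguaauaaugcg
mmu-miR-126b-3p: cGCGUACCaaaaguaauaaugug
mmu-miR-126b-5p: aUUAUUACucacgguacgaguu
Mir126a hairpin: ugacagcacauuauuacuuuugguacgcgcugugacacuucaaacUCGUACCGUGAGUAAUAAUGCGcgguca
The 3p arm fills bases 46 to 67 of the 73-base hairpin. Its seed was found in 0 of the other mature mouse sequences among the 1738 searched, so it has no seed family in that collection. At the best ungapped position, 17 of the 22 bases of miR-126a-3p matched miR-126b-3p. The mature miR-126-5p is named only.

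The deposited values are log2 values of quantile-normalized ppm, a share of the usable reads, and so are relative levels that mainly give the rank of a microRNA in its library. An entry at the lowest value of the table, 3.32 or 10 ppm before the log2, counted as not detected. The depth of single libraries is unknown, and no interval from counting is given. The number of detected entries was 200 to 328 over the CHR libraries, 163 to 281 over the PAP libraries and 236 to 365 over the cuSCC libraries. Over the 293 microRNAs tested below, after subtraction of each row's mean, the cuSCC of mouse 10 correlated at r = 0.408 on average with the PAP libraries and at -0.12 with the other cuSCC, and values are also given without it. The labels and files name no batch. Differences were tested with limma over the 293 microRNAs detected in at least 6 libraries, with Benjamini-Hochberg adjustment over all 293 and a threshold of 0.05.

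miR-126-3p was the more abundant arm in each of the 18 libraries and was detected in all of them. In CHR its level ranged from 7.42 to 8.74 with a median of 8.42, and in PAP from 7.24 to 8.71 with a median of 8.35. In cuSCC it ranged from 8.79 to 10.36 with a median of 9.77. The cuSCC levels lay above every level measured in CHR and in PAP, whereas those of CHR and PAP overlapped nearly throughout. By rank among the 1251 entries, counted from the most abundant, miR-126-3p stood between 107 and 145 in CHR, between 108 and 151 in PAP and between 76 and 106 in cuSCC.

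miR-126-5p was lower and more variable. Its level ranged from 5.50 to 7.80 in CHR with a median of 6.74, and from 7.40 to 9.96 in cuSCC with a median of 8.27. In PAP it ranged from the lowest value, in mouse 7, to 7.05 in mouse 10, with a median of 5.59. The PAP library of mouse 7 held no detected value under 6.72, so the true level of the arm there can lie anywhere below that. In the PAP of mouse 3 the arm, at 5.40, was itself the lowest detected value of its library. For the 5p arm, cuSCC lay above PAP without overlap, while the cuSCC of mice 9 and 10 fell within the range of CHR. Its rank was 132 to 199 in CHR, 151 to 202 in the 5 PAP libraries that held it and 83 to 146 in cuSCC.

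**Figure D1:**
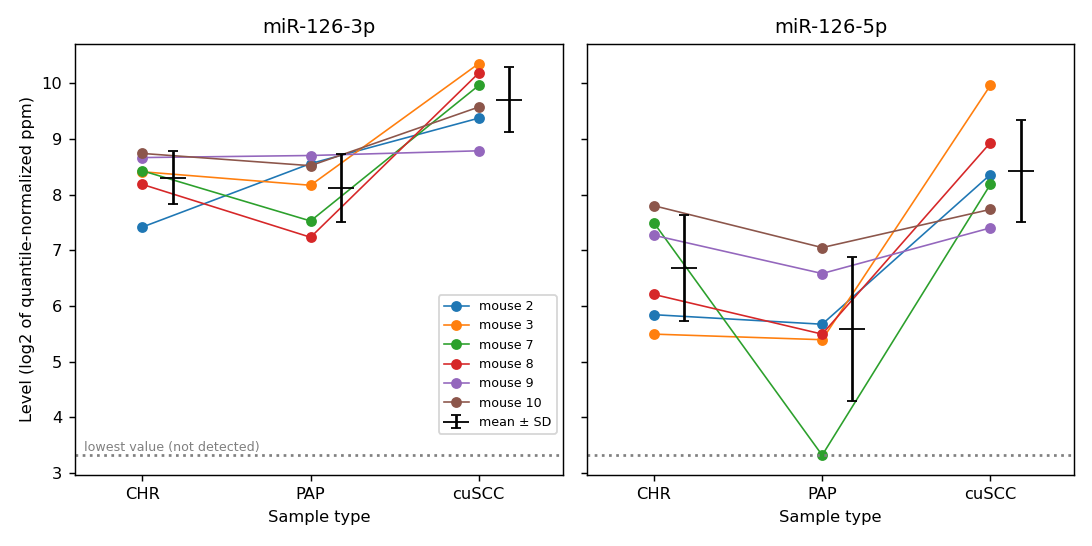
Level of miR-126-3p (left) and miR-126-5p (right) in log2 of quantile-normalized ppm, by sample type, where each coloured line joins the 3 samples of a mouse and black bars give the mean and SD of 6 samples. All 6 cuSCC points of the 3p arm lie above every CHR and PAP point, and the 5p arm of the PAP of mouse 7 lies on the dotted line of the lowest value, 3.32.

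The first comparison asks what distinguishes carcinoma from the irradiated skin around it. miR-126-3p rose in cuSCC, where it was at 9.71 ± 0.58 beside 8.31 ± 0.48 for CHR (SD, n = 6). The rise was 1.40 on the log2 scale, or 2.64-fold (standard error 0.33, limma adjusted p = 0.00493). The 95% interval of this difference ran from 1.61-fold to 4.31-fold. The arm was higher in the cuSCC than in the CHR of the same animal in 6 of 6 mice, by as little as 0.12 in mouse 9 and by a median of 1.74. This count of mice follows from the lack of overlap between the 2 types. miR-126-5p rose from 6.69 ± 0.96 to 8.43 ± 0.92 (SD, n = 6), by 1.74 or 3.35-fold (standard error 0.50, limma adjusted p = 0.0132). It was higher in 5 of 6 mice, with a difference of -0.07 in mouse 10 and of 4.47 in mouse 3. Of all 293 microRNAs, 42.3% passed in this comparison and 20.1% passed as higher and 22.2% as lower in cuSCC. The separation of the 3p arm without overlap was shared by 9.90% of them. In the order of rises, the 3p arm stood at position 41 of 293 and the 5p arm at position 26. The call of the 5p arm was lost when mouse 2 was left out (limma adjusted p = 0.0525), and likewise for mouse 3 (0.0677) and mouse 8 (0.0536), with differences of 1.59, 1.20 and 1.55.

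Papilloma was compared with CHR to see which changes already stand in the benign lesion. Neither arm passed. miR-126-3p was at 8.12 ± 0.61 in PAP (SD, n = 6), which is -0.19 relative to CHR (standard error 0.33, limma adjusted p = 0.691). The 95% interval of this difference ran from 0.53-fold to 1.44-fold, so it holds modest changes in either direction. The arm was higher in the PAP of 2 of 6 mice, lower in the others, and rose by 1.14 in mouse 2. miR-126-5p was at 5.59 ± 1.29 in PAP (SD, n = 6), which is -1.10 relative to CHR (standard error 0.61, limma adjusted p = 0.197). It was below the CHR level of the same animal in all 6 mice, by as little as -0.10 in mouse 3 and by -4.17 in mouse 7. The size of this difference rests on the undetected value of mouse 7. It was -0.65 without that PAP library (limma adjusted p = 0.363) and -0.53 when undetected entries were given the smallest detected value of the same library (limma adjusted p = 0.354). Of all 293 microRNAs, 32.4% passed between PAP and CHR, 14% as higher and 18.4% as lower in PAP, that is 41 and 54 microRNAs, and with undetected entries at the smallest detected value of their library the split turned to 63 higher and 37 lower. Of the 293, 6.48% had every PAP level above every CHR level.

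Between the lesions, carcinoma against papilloma, both arms were higher in cuSCC. miR-126-3p differed by 1.59 or 3.01-fold (standard error 0.36, limma adjusted p = 0.0319), with a 95% interval from 1.76-fold to 5.14-fold. It was higher in the cuSCC in 6 of 6 mice, by 0.08 in mouse 9 and by 2.95 in mouse 8 at the extremes. For both arms the levels of cuSCC and PAP did not overlap, so a rise in 6 of 6 mice follows from that. miR-126-5p differed by 2.84 (standard error 0.61, limma adjusted p = 0.0269), and was higher in 6 of 6 mice, by between 0.69 in mouse 10 and 4.86 in mouse 7. As a fold this is 7.18, with a 95% interval from 2.89 to 17.8, and it leans on the undetected PAP of mouse 7. Without that library the 5p difference was 2.39 (limma adjusted p = 0.0407), and with 100 ppm as the smallest allowed value it was 1.72 (limma adjusted p = 0.0247). In this comparison 11.6% of the 293 microRNAs passed, 9.22% as higher and 2.39% as lower in cuSCC. This split, 27 higher and 7 lower, turned to 18 higher and 62 lower with undetected entries at the smallest detected value of their library, which moved the median difference of all 293 from 0.21 to -0.48. Under that treatment the 5p arm differed by 2.28 (limma adjusted p = 0.00785). By size of rise the 5p arm stood at position 4 of 293 and the 3p arm at position 33, and by p value they stood at positions 5 and 6. Only 4 of the 293, or 1.37%, had every cuSCC level above every PAP level, and the arms of miR-126 were a pair among these 4. Another of these 4, miR-1843a-5p, was undetected in all PAP libraries, so its separation depends on the value given to undetected entries.

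Both calls between cuSCC and PAP were close to the threshold. In a fit paired by animal, with a replicate block for mouse, the 3p arm did not pass (limma adjusted p = 0.0566) and the 5p arm did (0.0384). The 3p arm lost its call when mouse 2, 3, 7 or 8 was left out (limma adjusted p = 0.0526, 0.129, 0.115 and 0.103) and when the PAP of mouse 7 alone was left out (0.0609). The 5p arm lost it with the same mice left out (limma adjusted p = 0.06, 0.106, 0.0778 and 0.096). The differences themselves stayed between 1.32 and 1.89 for the 3p arm and between 2.44 and 3.28 for the 5p arm with any 1 mouse left out. By the exact permutation test of each arm, two-sided, p = 0.00216, the smallest that 6 against 6 samples can give, and adjusted over the 293 microRNAs it was 0.0945 for both. Without the cuSCC of mouse 10 both arms passed (limma adjusted p = 0.0158 for 3p and 0.00865 for 5p).

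**Figure D2:**
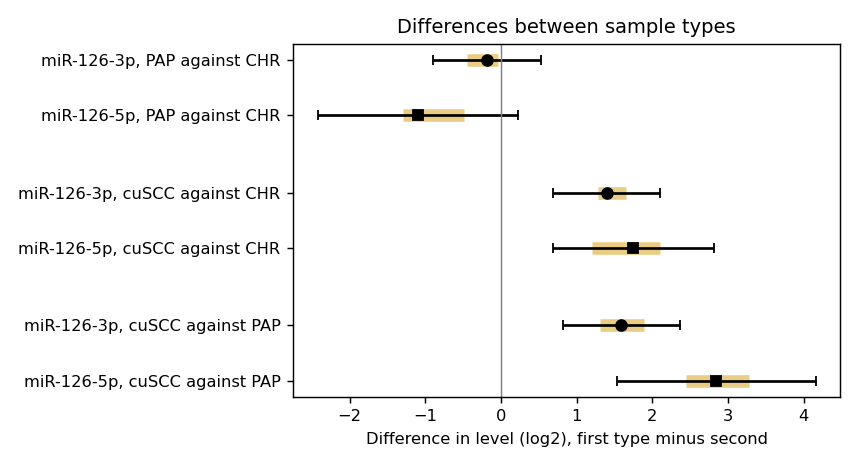
Differences in level between sample types (log2, first type minus second) for both arms, with black bars for the 95% interval from limma and yellow bars for the range when each mouse is left out in turn. The intervals of the differences between cuSCC and the other types, 1.40 and 1.74 against CHR and 1.59 and 2.84 against PAP, lie above 0, and those between PAP and CHR cross 0.

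The balance of the arms, miR-126-3p minus miR-126-5p within a library, shows whether they moved by the same amount. In CHR the 3p arm was ahead by 0.94 to 2.92 with a median of 1.49, in PAP by 1.47 to 4.21 with a median of 2.45, and in cuSCC by 0.39 to 1.84 with a median of 1.32. The ranges of all 3 sample types overlapped. The balance of cuSCC minus that of PAP was -1.26, with cuSCC higher in 1 of 6 mice (exact permutation test, two-sided, p = 0.0173, adjusted p = 0.0519 over 3 comparisons). The larger rise of the 5p arm thus did not pass after adjustment, which does not show that the arms rose alike. With undetected entries at the smallest detected value of their library the difference was -0.69 (exact permutation p = 0.115). Relative to CHR the balance differed by 0.91 in PAP (adjusted p = 0.14 by the same exact test) and by -0.35 in cuSCC (adjusted p = 0.396 by the same exact test).

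Within a sample type, the arms tended to be high in the same animals, but no correlation passed. In cuSCC Pearson's r was 0.838 over the 6 mice (exact permutation p = 0.0375, adjusted p = 0.113 over the 3 sample types), and Spearman's rho was 0.829 (exact permutation p = 0.0583, adjusted p = 0.154). In CHR r was 0.642 (exact permutation p = 0.132, adjusted p = 0.147) and rho 0.771 (exact permutation p = 0.103, adjusted p = 0.154). In PAP r was 0.671 (exact permutation p = 0.147, adjusted p = 0.147) and rho 0.657 (exact permutation p = 0.175, adjusted p = 0.175). Without the 2 mice farthest from the median of the 3p arm, r was 0.599 in cuSCC, 0.498 in CHR and 0.628 in PAP. With undetected entries raised in the same way, r in PAP was 0.282. The cuSCC of mouse 3 was highest in both arms and that of mouse 9 lowest in both.

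**Figure D3:**
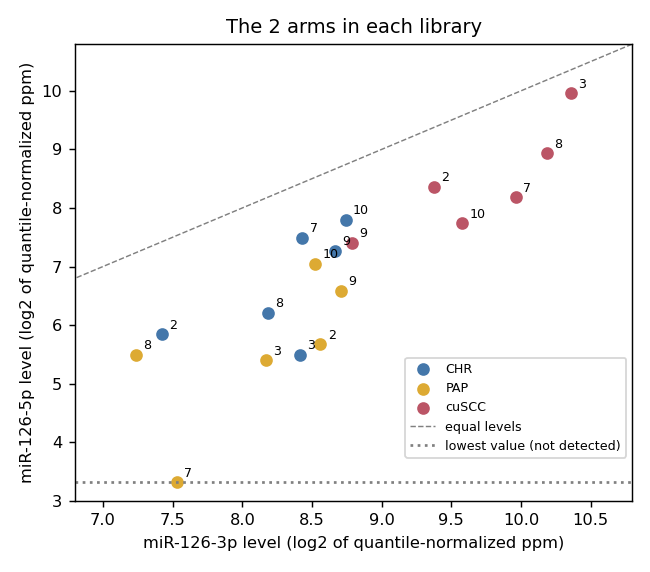
Level of miR-126-5p against that of miR-126-3p, both in log2 of quantile-normalized ppm, in the 18 libraries, coloured by sample type and numbered by mouse. All points lie under the dashed line of equal levels, the cuSCC of mouse 3 nearest to it at a balance of 0.39 and the PAP of mouse 7 farthest at 4.21.

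The microRNAs whose levels followed each arm most closely over the 18 libraries were named by Pearson's r against the other 292 tested microRNAs. These libraries share 6 mice, 3 sample types and 1 normalization, so r is given as a description. For miR-126-3p they were miR-142-5p, a microRNA of blood-forming and immune cells (r = 0.896), miR-22-3p (r = 0.895), miR-126-5p itself (r = 0.863), miR-26a-5p (r = 0.798) and miR-322-5p, the mouse counterpart of human miR-424 (r = 0.764). For miR-126-5p they were miR-126-3p (r = 0.863), miR-142-5p (r = 0.841), miR-22-3p (r = 0.775), miR-10b-5p, which is encoded in a Hox cluster (r = 0.755), and miR-199b-5p, a microRNA of mesenchymal cells (r = 0.709). With the mean of each sample type taken out, r of miR-126-3p was 0.769 with miR-142-5p, 0.708 with miR-22-3p, 0.708 with miR-126-5p, 0.608 with miR-26a-5p and 0.458 with miR-322-5p. The closest to miR-126-3p by that measure was miR-30b-5p (r = 0.8). For miR-126-5p it was 0.708 with miR-126-3p, 0.563 with miR-142-5p, 0.524 with miR-22-3p, 0.492 with miR-199b-5p and 0.47 with miR-10b-5p. miR-142-5p was at 8.59 ± 0.998 in CHR, 7.58 ± 0.60 in PAP and 10.12 ± 0.51 in cuSCC (SD, n = 6), higher in cuSCC than in PAP by 2.53 (limma adjusted p = 0.0018) and than in CHR by 1.53 (limma adjusted p = 0.0132). miR-22-3p, among the abundant microRNAs of these libraries at 14.85 ± 0.65 in CHR, 14.78 ± 0.44 in PAP and 16.66 ± 0.97 in cuSCC, was higher in cuSCC than in PAP by 1.88 (limma adjusted p = 0.0319).

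In whole tissue, a higher level of an endothelial microRNA can come from more endothelial cells or from more of it per cell, and these cannot be told apart. Lists of microRNAs known from other cells of the skin are given beside it for context, and they do not tell these apart either. Between cuSCC and PAP, some markers of several non-epithelial cells were also higher in cuSCC. Of all 293 microRNAs, 9.22% passed as higher and 2.39% as lower in that comparison. Among 3 tested skeletal muscle microRNAs, 3 rose, and miR-133a-3p, a microRNA of striated muscle fibres, rose by 6.82 (limma adjusted p = 0.0394). The others, miR-133b-3p and miR-206-3p, rose by 2.52 and 2.62 (limma adjusted p = 0.0319 and 0.0383). Both of these were at the lowest value in all PAP libraries, and with undetected entries at the smallest detected value of their library they differed by 0.55 and 0.66 and did not pass (limma adjusted p = 0.512 and 0.471). Of the 5 fibroblast microRNAs 2 rose, with a median difference of 2.17 over the list beside 0.21 over all 293, which became 0.87 beside -0.48 with undetected entries raised in that way. These were miR-199a-3p, higher by 2.62 (limma adjusted p = 0.0319), and miR-199b-5p, higher by 1.64 (limma adjusted p = 0.0394), a difference that turned to -0.32 under the same treatment (limma adjusted p = 0.683). The abundant miR-199a-5p and miR-214-3p differed by 2.77 and 1.44 (limma adjusted p = 0.117 and 0.479). Of the 3 smooth muscle microRNAs 1 rose, miR-143-3p by 1.98 (limma adjusted p = 0.0402), and the list median was 1.15. miR-145a-5p differed by 1.05 (limma adjusted p = 0.252). The median was the difference of miR-145a-3p (limma adjusted p = 0.104), which was at the lowest value in all PAP libraries. With undetected entries raised in the same way miR-145a-3p differed by -0.81 (limma adjusted p = 0.273). Of the 4 leukocyte microRNAs 1 rose, miR-142-5p, with a list median of 1.36, while miR-150-5p of lymphocytes and miR-342-3p differed by 0.29 and 0.80 (limma adjusted p = 0.781 and 0.653). With undetected entries raised in the same way the leukocyte median was 0.53 beside -0.48 over all 293. Of the 2 erythroid microRNAs, miR-486-5p fell by 1.83 on the log2 scale (limma adjusted p = 0.0394), while miR-451a differed by -0.78 (limma adjusted p = 0.599). Of the 7 epithelial microRNAs, miR-200c-3p alone passed and fell by 1.45 on the log2 scale (limma adjusted p = 0.0319), with a list median of -0.09. The keratinocyte microRNAs miR-205-5p and miR-203-3p differed by -0.14 and 0.66, and miR-200b-3p by -0.09 (limma adjusted p = 0.787, 0.293 and 0.838). In each sample type miR-205-5p reached 18.47, the highest value of the table, so its differences are capped there. With 1 mouse left out, the rise of miR-142-5p was the only call among these lists that passed each time. The other counts between cuSCC and PAP fell to 0 or 1 without mouse 2, 3, 7, 8 or 9, and without mouse 10 they were 3 for smooth muscle and 4 for fibroblasts. Without the filter on low values 0 passed in the skeletal muscle, fibroblast, smooth muscle and erythroid lists.

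The summed level of the fibroblast list, as log2 of the sum of its members, ranged from 12.7 to 13.1 in CHR, from 7.72 to 12.7 in PAP and from 10.2 to 13.7 in cuSCC. That of the smooth muscle list ranged from 13.7 to 14.7, from 10.9 to 13.3 and from 12.2 to 15.1, in the same order. For the leukocyte list the ranges were 13.1 to 14.3, 9.06 to 11.8 and 11.1 to 12.6, and for the skeletal muscle list 15.4 to 16.0, 5.32 to 12.4 and 6.04 to 14.2. The 5.32, in the PAP of mice 3, 7 and 10, is the sum with every member undetected. In PAP, miR-199b-5p, miR-143-5p, miR-145a-3p, miR-142-3p, miR-133b-3p and miR-206-3p were undetected in all 6 libraries, as were miR-1a-3p, miR-223-5p and both arms of miR-144. Of these, miR-1a-3p, miR-223-5p and both arms of miR-144 were also undetected in every CHR library. miR-143-5p, miR-223-5p and miR-144-3p were also undetected in every cuSCC library. The smallest detected value of a library was on average 5.48 in PAP, 4.11 in CHR and 3.74 in cuSCC. The part of the listed markers in the difference of miR-126 between cuSCC and PAP was not tested. In the cuSCC of mouse 10 the summed levels of the fibroblast list, 10.2, the smooth muscle list, 12.2, the leukocyte list, 11.1, and the skeletal muscle list, 6.04, were each the lowest of the 6 carcinomas. In that library miR-126-3p was at 9.58 and miR-126-5p at 7.74, both under their cuSCC medians of 9.77 and 8.27.

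Against CHR the lists and miR-126 are set side by side, without a test of the difference between them. Of all 293, 20.1% passed as higher and 22.2% as lower in cuSCC than in CHR. In cuSCC, where both arms rose, 0 of the 5 fibroblast microRNAs passed in limma, and the list median was 0.55 beside 0.11 over all 293. The 2 with an unadjusted p under 0.05 differed in opposite directions, miR-199a-3p by 1.14 and miR-214-3p by -1.20 (limma adjusted p = 0.0755 and 0.0954). Without mouse 10, 4 of them passed as higher, and without its cuSCC alone 3 did. Of the 3 smooth muscle microRNAs, miR-145a-5p fell by 1.78 on the log2 scale (limma adjusted p = 0.014), and miR-143-3p differed by 0.45 (limma adjusted p = 0.415). Without the cuSCC of mouse 10, all 3 passed, 2 as higher and miR-145a-5p as lower. Of the 4 leukocyte microRNAs, miR-142-5p rose while miR-150-5p fell by 2.33 and miR-342-3p fell by 2.86 on the log2 scale (limma adjusted p = 0.000927 and 0.000152). Of the 3 skeletal muscle microRNAs, miR-133a-3p fell by 3.22 on the log2 scale (limma adjusted p = 0.0476), a call lost without mouse 2, 3, 7, 8 or 9, and the list median was -0.59. Of the 7 epithelial microRNAs 3 rose, beside 20.1% of all 293, with a list median of 0.88, and 0 passed without mouse 2 or without mouse 3. Of the erythroid pair, miR-451a of red cells rose by 3.99 (limma adjusted p = 0.000747) and miR-486-5p fell by 1.27 on the log2 scale (limma adjusted p = 0.0325), a call lost without mouse 2, 3, 7, 8 or 9. In PAP, neither arm of miR-126 passed. There 2 of the 5 fibroblast, 2 of the 3 smooth muscle, 3 of the 3 skeletal muscle and 2 of the 4 leukocyte microRNAs fell. Of all 293, 18.4% passed as lower in PAP. The medians of these lists were -1.69, -1.53, -3.22 and -2.34 beside -0.23 over all 293. Without mouse 3, without mouse 7 and without mouse 8, 0 of the fibroblast microRNAs passed, without mouse 3 1 smooth muscle microRNA did, and without mouse 7 1 leukocyte microRNA did. With undetected entries at the smallest detected value of their library the list medians were -1.48, -1.53, -1.05 and -1.82, in the same order. The median of all 293 was then 0.44, and of the skeletal muscle microRNAs 1 passed. Of the 7 epithelial microRNAs 4 rose in PAP, beside 14% of all 293, with a list median of 1.24, and 2 passed without mouse 3 or without mouse 7.

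**Figure D4:**
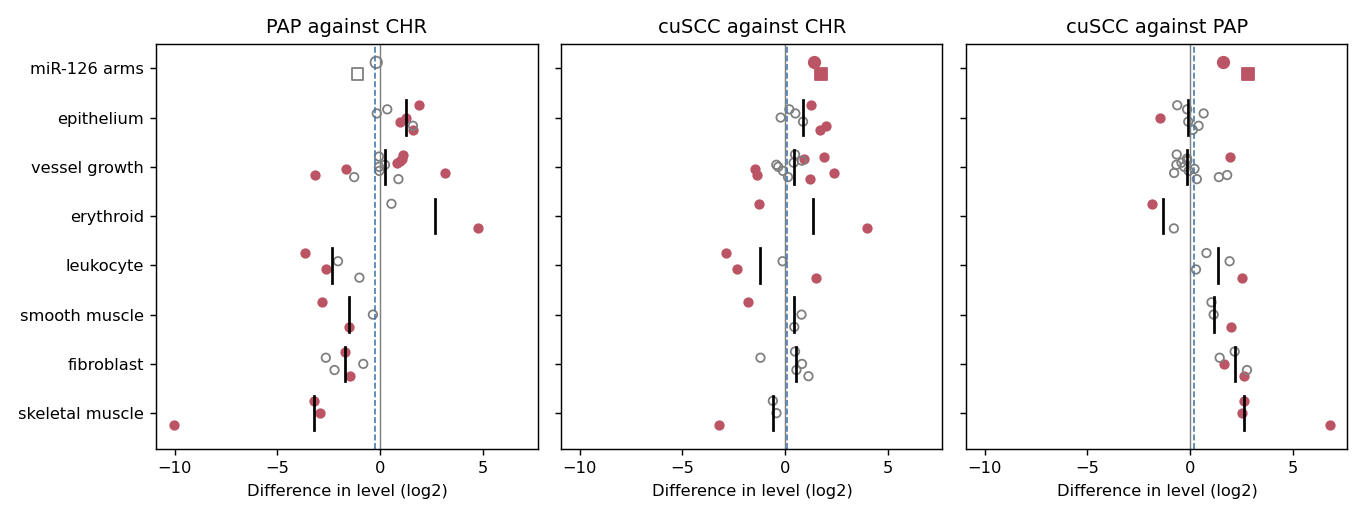
Differences in level (log2, first type minus second) for the arms of miR-126 (circle, 3p, and square, 5p) and for every tested microRNA of 7 lists, filled red where the limma adjusted p was under 0.05, with black bars for list medians and a dashed blue line for the median of all 293. Between cuSCC and PAP the arms, at 1.59 and 2.84, lie on the same side of 0 as the medians of the leukocyte, smooth muscle, fibroblast and skeletal muscle lists, at 1.36, 1.15, 2.17 and 2.62. With undetected entries at the smallest detected value of their library these medians were 0.53, 1.05, 0.87 and 0.66.

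Other microRNAs known from studies of endothelium and vessel growth did not share 1 pattern. Of the 16 listed, 13 were tested, and miR-296-5p and miR-503-5p were undetected in all 18 libraries. Between cuSCC and PAP 1 of the 13 rose, where 9.22% of all 293 passed as higher. It was miR-322-5p, by 1.96 (limma adjusted p = 0.0394), and the list median was -0.13. With undetected entries at the smallest detected value of their library miR-322-5p differed by 0.45 (limma adjusted p = 0.531), and its call was also lost without mouse 2, 3, 7, 8 or 9. Between cuSCC and CHR 4 rose and 2 fell, with a median of 0.42, where 42.3% of all 293 passed. Between PAP and CHR 5 rose and 2 fell, with a median of 0.24, where 32.4% of all 293 passed, and this count of 7 became 4 without mouse 3 and 3 without mouse 7. miR-210-3p, the microRNA induced by hypoxia, was at 7.90 ± 0.41 in CHR, 11.06 ± 0.57 in PAP and 10.29 ± 0.58 in cuSCC (SD, n = 6), and exceeded CHR in PAP by 3.17 and in cuSCC by 2.39 (limma adjusted p = 1.02e-05 and 7.75e-05), while its difference between cuSCC and PAP, -0.77, did not pass (limma adjusted p = 0.169). miR-92a-3p, a member of the miR-17 cluster, rose by 1.13 in PAP (limma adjusted p = 0.00938) and differed by 0.49 from CHR in cuSCC (limma adjusted p = 0.255). miR-27b-3p, from a cluster with miR-23b and miR-24, rose by 1.05 in PAP and 0.91 in cuSCC (limma adjusted p = 0.0085 and 0.038). miR-23b-3p did not pass in any comparison, with differences of 0.24 in PAP and -0.42 in cuSCC against CHR.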

How the data were processed

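The values of 18 small RNA libraries, 6 of each sample type, were analysed. The authors trimmed adapters, removed reads under 10 nt or with a homopolymer end, assigned the remaining reads to miRBase entries by BLAST and gave each microRNA in ppm of the usable reads. As deposited, the values are this ppm on the log2 scale after quantile normalization, a step read from the values and not described in the methods. At the upper ranks the libraries thereby hold nearly the same values, so a rise of some microRNAs there is balanced by falls of others. Lower down they differ, with 163 to 365 detected entries and smallest detected values from 3.32 to 6.83. Read totals were not used, and the depth behind a value is unknown.

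Each pair of sample types was compared in limma 3.58.1 (R 4.3.3, functions lmFit and eBayes, 6 against 6, two-sided, no block; the study's methods name its test without saying whether it was paired) on the 293 of 1251 entries detected in at least 6 libraries, with Benjamini-Hochberg adjustment over the 293. Called means an adjusted p under 0.05. Exact permutation tests, sequence searches and plots used Python 3.11.15 with scipy 1.17.1, pandas 2.3.3, numpy 2.4.6 and matplotlib 3.10.9. The limma step was tested on simulated data.

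The number in a sample's label is that of its animal, which pairs the samples. Deviations of paired samples from their type means had a mean r over microRNAs of -0.0676 for cuSCC with CHR, 0.025 for PAP with CHR and 0.0582 for cuSCC with PAP.

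The members and lists were chosen with earlier results of these data known. The text names both arms, for each the 5 most alike microRNAs by Pearson's r, and of each list the 3 most abundant tested members and any called between cuSCC and PAP. miR-30b-5p, miR-210-3p, miR-1843a-5p and undetected list members were named after their values were seen. Alternatives were other detection filters, a joint fit of the sample types, a replicate block for mouse, centring of libraries, other treatments of low values, an exact permutation test and leaving out each mouse. Leaving out the PAP of mouse 7 or the cuSCC of mouse 10 was added after seeing the data, as were the alternatives for the correlation of the arms.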

Additional observations from a re-analysis of the deposited data

How the results depend on the processing

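miR-126-3p between cuSCC and CHR kept its direction and its call under every alternative run, with differences of 1.28 to 1.65 with 1 mouse left out. miR-126-5p kept both except without mouse 2, 3 or 8, with differences of 1.20 to 2.11 over the mice left out. Between cuSCC and PAP both arms kept their direction throughout. The 3p arm, at 1.59, did not pass in the fit with a replicate block (limma adjusted p = 0.0566) or, like the 5p arm at 2.84, by the exact permutation test (adjusted p = 0.0945 for both). With libraries or mice left out they ranged from 1.32 to 1.89 and from 2.39, without the PAP of mouse 7, to 3.28, passing in some and not in others. The block changed no other call of the arms. The count of microRNAs called between cuSCC and PAP was unstable. It was 34, 21 with detection in at least 12 libraries, 8 without a filter on low values and 80, of which 62 were lower in cuSCC, with undetected values at the lowest detected value of their library. By the exact permutation test it was 0, with 75 at an unadjusted p under 0.05, and it was 1 to 59 with libraries or mice left out, 1 without mouse 3, 7 or 8. Over all alternatives the count of 124 between cuSCC and CHR ranged from 77 to 131, lowest without mouse 3, and that of 95 between PAP and CHR from 55, without mouse 3, to 103, with 83 when the PAP of mouse 7 alone was left out. The balance of the arms between cuSCC and CHR changed sign without mouse 3, to 0.089, over a range that began at -0.60, and between cuSCC and PAP it ranged from -1.58 to -1.02 and passed without mouse 10 (exact permutation test, adjusted p = 0.0476). With the balance paired by mouse as a replicate block, an exact sign-flip test gave an adjusted p of 0.188 between cuSCC and PAP. Of the lists, the count of called members with 1 mouse left out ranged between PAP and CHR from 0 to 2 for fibroblasts, 1 to 2 for smooth muscle and 1 to 3 for leukocytes, 2 to 4 for epithelium and 3 to 6 for vessel growth. For skeletal muscle it stayed at 3, but was 1 with undetected values at the lowest detected value, with 100 ppm as the smallest value and with detection in at least 12 libraries, where 1 was tested. Between cuSCC and CHR it ranged from 0 to 4 for fibroblasts, 2 to 3 for leukocytes, 0 to 1 for skeletal muscle and 0 to 3 for epithelium. The cause of these changes was not tested.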

Other observations

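Besides the arms of miR-126, the microRNAs with every cuSCC level above every PAP level were miR-142-5p and miR-1843a-5p, named after their values were seen. The lowest cuSCC level of miR-142-5p, 9.52, lay 1.03 above its highest PAP level, and the gap was 0.20 for miR-1843a-5p, which was at the lowest value in all PAP libraries. The lowest cuSCC level of miR-1843a-5p, 3.52, lay under the smallest detected value of every PAP library, 3.71 to 6.83. Its true PAP levels can therefore lie above that cuSCC level. For miR-126-3p the gap was 0.08 and for miR-126-5p it was 0.35, both set by the cuSCC of mouse 9. In mouse 9 the 3p arm was at 8.67 in CHR, 8.71 in PAP and 8.79 in cuSCC, the flattest course of the 6 animals. The summed fibroblast level of that cuSCC, 13.2, was above that of mouse 10 and below those of the other 4 carcinomas.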
